A study of Canis lupus familiaris with 14 samples.

Results

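The lipid droplet and lipolysis genes PLIN1, PLIN4, CIDEC, CIDEA and LIPE were followed through the bone and the osteosarcoma of 7 dogs. They are 5 of the 30951 genes of the count table and were chosen by name, with earlier results of these data known. Their Ensembl identifiers came from the symbols that the study's supplementary tables give, and all 5 had counts. Osteosarcoma is a malignant tumor of bone-forming cells, and it arises spontaneously in dogs. For each of dogs A to G, 1 library of polyadenylated RNA was made from the primary tumor and 1 from the second phalanx of the same amputated leg, giving 7 bone and 7 tumor libraries. Dogs A and F were Golden Retrievers, dog B a Rottweiler, dog C a Doberman Pinscher, dogs D and G Greyhounds and dog E a Great Pyranees. The tumor lay in the distal radius in dogs A, C, E and F, in the proximal humerus in dog D, in the distal femur in dog B and in the distal tibia in dog G. Dogs E and G were spayed females and the others castrated males. Dog D was the oldest, followed by dog A. No animal had yet received chemotherapy. All groups were pet dogs with natural disease, and no gene or agent was manipulated. The bone had been cleared of marrow, and its RNA was extracted with a bone-specific method whereas the tumor was homogenized in Tri-Reagent. Extraction method, skeletal site and tissue therefore cannot be told apart.

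Adipocytes store triglyceride in a lipid droplet whose surface is covered by perilipins. PLIN1 and PLIN4 are such coat proteins, and PLIN1 guards the droplet by holding back the lipases until hormones call for fat. CIDEC and CIDEA sit where droplets touch and let lipid pass from the smaller into the larger droplet, and CIDEA is best known from brown and beige fat. LIPE, or hormone-sensitive lipase, cleaves diglyceride after PNPLA2, or adipose triglyceride lipase, has removed the first fatty acid. In white fat these genes are switched on together as adipocytes mature, and the nuclear receptor PPARG is a known activator of them. Fat cells fill much of the marrow of adult bone.

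Total counts ranged from 18650945 to 34479429 per library. The 10 most-counted genes took 47.2% of the counts in the bone of dog E and 42.4% in its tumor, against 8.43% to 22.2% in the bone and 12.1% to 32.0% in the tumor of the other dogs. Levels are therefore given as normalized counts, that is, counts divided by the median-of-ratios size factor of the library. Markers of bone cells were present in bone, since SOST, MEPE, DMP1, PHEX and BGLAP each had at least 158 normalized counts in every bone library. Transcript lengths were not used here, so levels are compared between libraries and not between genes.

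In all 7 dogs each of the 5 genes had less RNA in tumor than in bone, as had 4.71% of the 27655 genes tested. Each was also called lower by the edgeR quasi-likelihood test. A call needed an FDR under 0.05, more than a 2-fold difference and an average of more than 10 normalized counts, and 1.79% of all genes were called lower by it. The DESeq2 Wald test called all 5 lower as well, with 4.46% of all genes. Since the genes were chosen with their fold-changes known, these shares are given as background only. In edgeR the log2 fold-changes ran from -5.06 for CIDEC to -2.24 for LIPE, against a median of -0.05 over all genes tested. The values of CIDEC and CIDEA (-4.86) differed by less than their standard errors of 0.45 and 0.64. In bulk tissue, fewer cells of a type and less RNA per cell cannot be told apart.

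**Figure D1:**
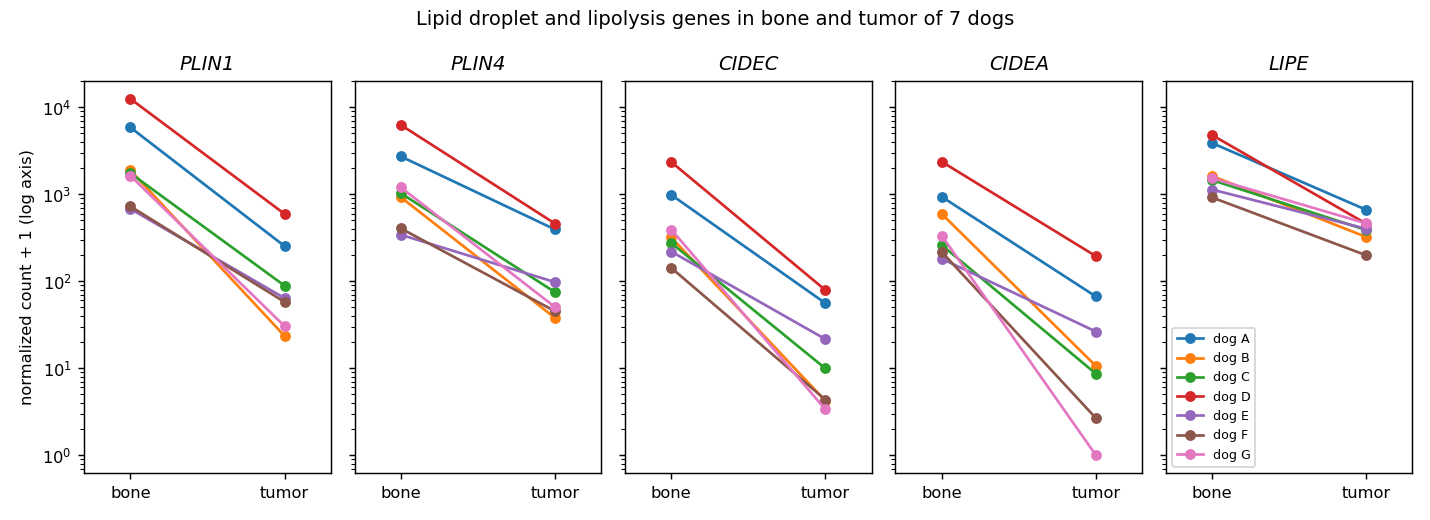
Normalized count + 1 (log axis) of each gene in bone and tumor. Each line joins the bone and the tumor of 1 dog, and every line falls from bone to tumor, least steeply for LIPE.

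PLIN1 (ENSCAFG00000011986) ranged in bone from 678 normalized counts in dog E over a median of 1741 to 12507 in dog D. In tumor it ranged from 22.4 in dog B over a median of 62.8 to 592 in dog D. The highest tumor lay below the lowest bone, so the groups did not overlap, as was so for 1.44% of all genes tested. By edgeR, PLIN1 changed by -4.62 ± 0.38 (log2 fold-change ± standard error, FDR = 0.00195). The bones spanned an 18.5-fold range over dogs and the tumors a 26.4-fold range.

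PLIN4 (ENSCAFG00000015323), the larger coat protein, had between 341 normalized counts in the bone of dog E and 6255 in that of dog D, with a median of 1025. Tumor levels ran from 36.8 (dog B) to 459 (dog D), with a median of 73.8. Here the groups overlapped, because the tumors of dogs A (393) and D (459) lay above the bone of dog E (341), and the tumor of dog D also lay above the bone of dog F (403). Within each dog PLIN4 was still lower in tumor, with a change of -3.53 ± 0.35 on the log2 scale (edgeR, FDR = 0.00205). In the RefSeq annotation of the UU_Cfam_GSD_1.0 assembly PLIN4 overlaps HDGFL2, and LIPE overlaps the non-coding LOC102152075. Whether the counting used strand is not given in the sources used here, so reads of the overlaps may have been shared.

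CIDEC (ENSCAFG00000005266), which enlarges the single droplet of white fat cells, ranged in bone from 141 normalized counts in dog F over a median of 317 to 2346 in dog D. In tumor it ranged from 2.35 in dog G over a median of 8.91 to 78.0 in dog D, and the groups did not overlap. The fitted log2 fold-change of CIDEC was -5.06 ± 0.45 (edgeR, FDR = 0.00195). The tumor counts were low, at 2 to 86 reads, and the 2 reads of dog G leave its level relative to bone between 0.0728% and 2.17% (exact Poisson interval at 95%, counting error only).

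CIDEA (ENSCAFG00000018828), the family member best known from brown and beige fat, ranged among bones from 180 normalized counts (dog E) over a median of 334 to 2366 (dog D). Tumor ranged from 0 in dog G over a median of 9.61 to 193 in dog D. The tumor of dog D alone lay above a bone library, that of dog E. Of the 5 genes CIDEA varied most among tumors, with an SD of 2.62 for log2(normalized count + 1), against 1.33 among bones (n = 7 each). The edgeR log2 fold-change of -4.86 ± 0.64 (FDR = 0.00474) depends on the prior count where a library is at 0. In dog G, where 0 counts allow up to 3, CIDEA was at least 94.6-fold lower in tumor than in bone. Of 6 markers of brown or beige fat only DIO2 and PRDM16 could be paired with an identifier, and they went opposite ways. DIO2 was higher in 6 of 7 tumors and PRDM16 lower in 6 of 7. Neither passed in edgeR (FDR = 0.213 and 0.125), whereas both had an FDR under 0.05 in the DESeq2 Wald test (0.0404 and 0.0019).

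LIPE (ENSCAFG00000004813), the only lipase of the set, ranged in bone from 917 normalized counts in dog F over a median of 1529 to 4788 in dog D. In tumor it ranged from 198 in dog F over a median of 400 to 661 in dog A. The groups did not overlap, and LIPE changed by -2.24 ± 0.24 on the log2 scale (edgeR, FDR = 0.00252). LIPE had the narrowest spread of the 5 genes, with an SD of log2(normalized count + 1) of 0.89 in bone and 0.54 in tumor. The other 4 genes had SDs of 1.33 to 1.53 in bone and 1.48 to 2.62 in tumor.

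The level left in tumor was expressed as a percentage of the bone of the same dog. A median of 2.94% was left of CIDEA, 3.26% of CIDEC, 4.74% of PLIN1, 7.34% of PLIN4 and 21.6% of LIPE. The largest share of each of the 5 genes was left in dog E, at 9.27% for PLIN1, 28.4% for PLIN4, 9.42% for CIDEC, 14.1% for CIDEA and 35.4% for LIPE. Dog E also had the lowest or second lowest bone level of each gene, and its libraries were the ones with the most counts in few genes. The part of the latter in the result was not tested. Least PLIN1 and PLIN4 was left in dog B (1.19% for PLIN1), least CIDEC in dog G (0.601%) and least LIPE in dog D (9.55%). The study reports the lowest RNA integrity for the bone of dog B, followed by the tumor of dog A. The part of RNA integrity in the values of these dogs was not tested.

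**Figure D2:**
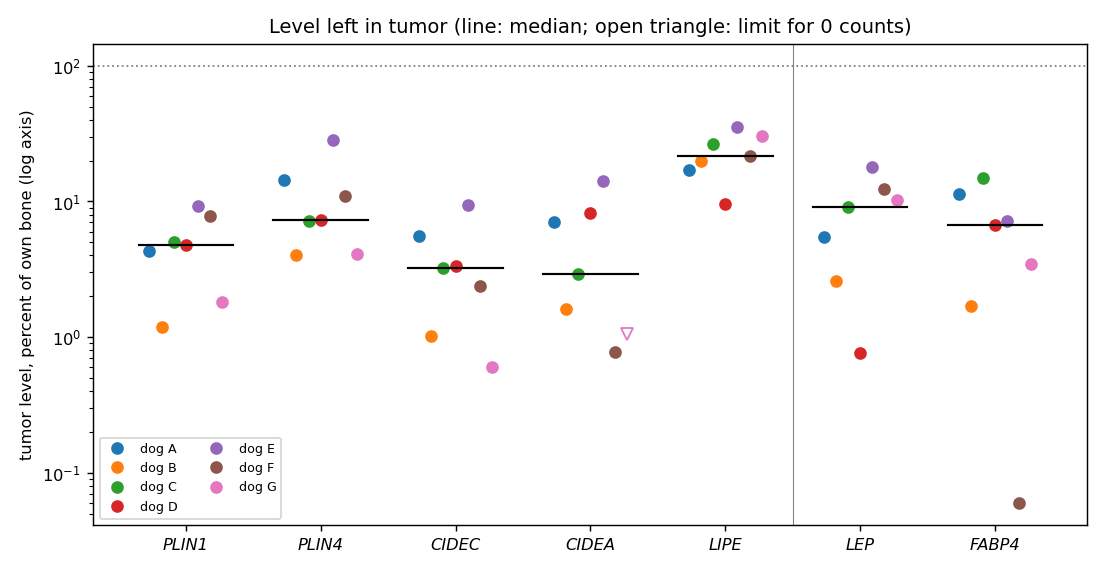
Tumor level as a percentage of the bone of the same dog (log axis), for the 5 genes and for the adipocyte genes LEP and FABP4. Points are single dogs, lines are medians, and the open triangle is the limit of 1.06% for CIDEA at 0 counts in dog G. LIPE keeps the largest median share of the 5 genes, 21.6%.

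The 10 ratios between pairs of these genes were then compared between tumor and bone, since a ratio within 1 library needs no scaling. Ratios are log2 of the counts with 0.5 added, and differences are tumor minus bone. The exact permutation test over all sign changes of the 7 within-dog differences (two-sided) cannot give a p below 0.0156, and p-values were adjusted over the 10 pairs. In 7 of the 10 pairs the ratio changed with an adjusted p under 0.05.

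The RNA of each of the 4 droplet protein genes fell relative to that of LIPE. The CIDEA/LIPE ratio changed by -3.05 ± 2.44 (SD), CIDEC/LIPE by -2.91 ± 1.42, PLIN1/LIPE by -2.40 ± 1.19 and PLIN4/LIPE by -1.27 ± 1.06. All 4 fell in 7 of 7 dogs (adjusted p = 0.026 each, exact permutation test). On variance-stabilized counts, a scale that compresses low counts, all 4 still fell in the mean, but by less. PLIN1/LIPE changed by -1.43 and passed (adjusted p = 0.0391, exact permutation test). PLIN4/LIPE, CIDEC/LIPE and CIDEA/LIPE changed by -0.55, -0.41 and -0.40 and did not pass (adjusted p = 0.0893, 0.0625 and 0.0893, exact permutation test). The order of the 4 by size therefore depends on the scale. With 1 dog left out, no pair passed without dog A, B, C, E, F or G, where 6 dogs allow no p below 0.0312. Expressed as a fold, the mean log2 change of PLIN1/LIPE is a 5.29-fold lower ratio in tumor (geometric mean over dogs). The fall was largest in dogs B and G, at -4.03 and -4.04, and smallest in dog D, at -1.01.

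The RNAs of the coat protein genes also changed relative to each other. PLIN1/PLIN4 was tight in bone, at 0.88 ± 0.22, and lay at -0.25 ± 0.54 in tumor. It fell in 7 of 7 dogs, with a mean change of -1.13 ± 0.58 (adjusted p = 0.026, exact permutation test). In tumor, dogs C, D and F lay between 0.25 and 0.37 and dogs A, B, E and G between -0.74 and -0.62. PLIN4 rose relative to CIDEC in 7 of 7 dogs, by 1.64 ± 0.51 (adjusted p = 0.026, exact permutation test), and relative to CIDEA in 6 of 7, by 1.77 ± 1.65 (adjusted p = 0.0446, exact permutation test).

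The other 3 pairs did not pass on the count ratio. PLIN1/CIDEC changed by 0.51 ± 0.71, PLIN1/CIDEA by 0.64 ± 1.83 and CIDEC/CIDEA by 0.13 ± 1.21, with adjusted p of 0.117, 0.503 and 0.812 (exact permutation test). Their differences ranged over dogs from -0.39 to 1.57, from -0.79 to 3.39 and from -1.29 to 2.09. The pairs with CIDEC or CIDEA rest on tumor counts of 0 to 12 in dogs B, C, F and G. On variance-stabilized counts PLIN1/CIDEC and PLIN1/CIDEA passed in the opposite direction, with changes of -1.02 and -1.04 (adjusted p = 0.0391 each, exact permutation test). PLIN4/CIDEC and PLIN4/CIDEA also turned, to -0.14 and -0.15, and did not pass (adjusted p = 0.451 and 0.332, exact permutation test). The direction of these 4 pairs therefore depends on the scale.

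**Figure D3:**
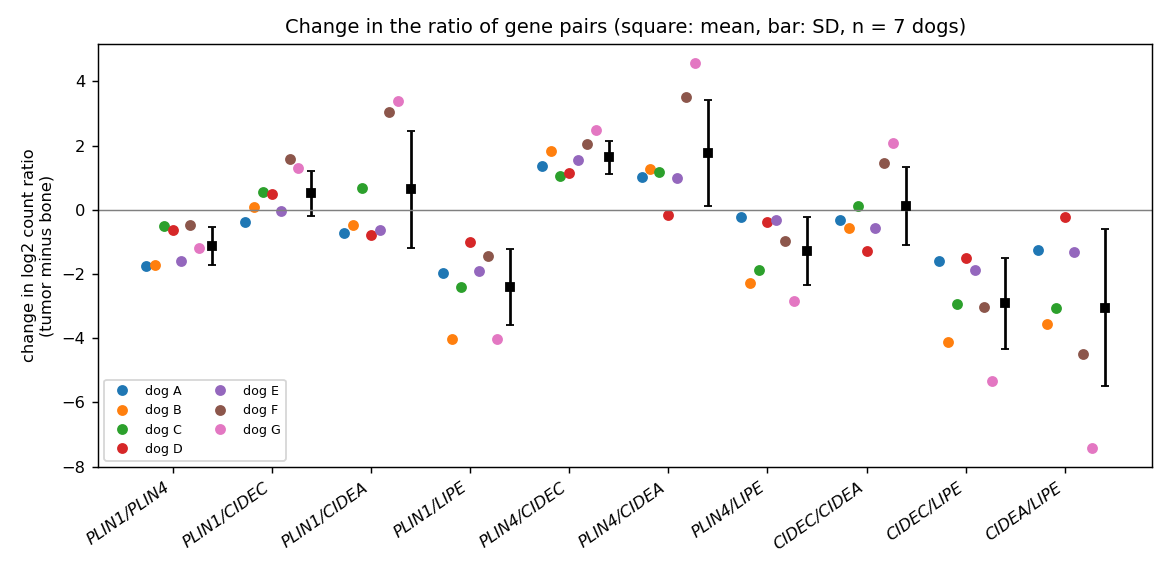
Change in the log2 count ratio of each pair, tumor minus bone. Points are single dogs and squares with bars are the mean and SD (n = 7). The 4 pairs with LIPE as the second gene lie below 0 in all dogs.

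Among bones the 5 genes rose and fell together from dog to dog. Dog D had the highest and dog A the next highest bone level of every gene, and dogs E and F had the lowest pair of levels of every gene. Pearson's r of log2(normalized count + 1) over the 7 dogs lay between 0.94 for PLIN4 with CIDEA and 0.99 for PLIN1 with PLIN4, and Spearman's rho between 0.86 and 0.96. With p-values adjusted over the 25 correlations computed, all 10 pairs in bone passed (adjusted p = 0.00496 each, exact permutation test). Without dog D, PLIN4 with CIDEA did not pass (r = 0.86, adjusted p = 0.0595, exact permutation test). Without the 2 dogs farthest from the median, r stayed between 0.63 and 0.99. The genes share a library and its scaling at each point.

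Among tumors, 6 of the 10 pairs passed, and none of these included LIPE. PLIN4 with CIDEC had r = 0.97, PLIN1 with PLIN4 0.95, CIDEC with CIDEA 0.94 and PLIN1 with CIDEC 0.92, each with an adjusted p of 0.00496 (exact permutation test, n = 7). CIDEA had r = 0.83 with PLIN1 and 0.86 with PLIN4 (adjusted p = 0.035 and 0.0245, exact permutation test). Without dogs A and D these fell to 0.32 and 0.54, so they rest on those dogs, and by Spearman's rho they did not pass (adjusted p = 0.138 and 0.11, exact permutation test). With 1 dog left out, CIDEA with PLIN1 did not pass without dog A, C, D, F or G, when r lay between 0.68 and 0.84. CIDEA with PLIN4 did not pass without dog A, C or D, when r lay between 0.77 and 0.86. The 4 pairs with LIPE had r between 0.48 and 0.69 and did not pass (adjusted p between 0.0891 and 0.281, exact permutation test). PLIN1 with LIPE had the lowest r, and r = -0.10 without dogs A and D, whereas the lowest rho, 0.36, was that of CIDEC and of CIDEA with LIPE. Without dog G, r rose to 0.82 for both of the latter, and CIDEC with LIPE then passed (adjusted p = 0.0412, exact permutation test) while CIDEA with LIPE did not (adjusted p = 0.0603, exact permutation test). Without dogs D and G, CIDEA with LIPE had r = 0.95. Whether these correlations differed between bone and tumor was not tested.

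**Figure D4:**
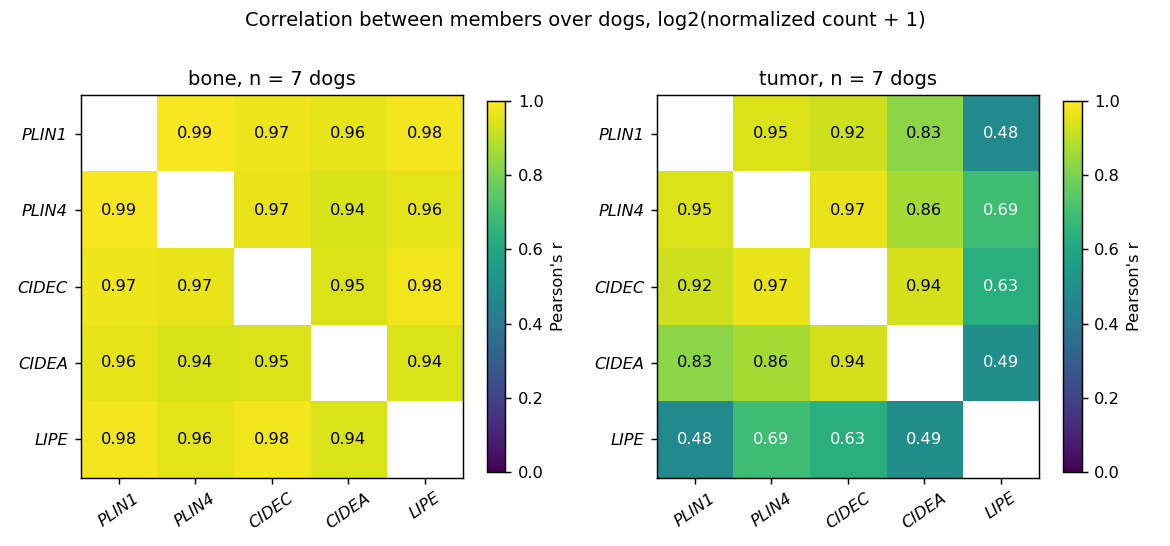
Pearson's r between the 5 genes over 7 dogs, in bone and in tumor, from log2(normalized count + 1). In bone the values lie between 0.938 and 0.990, and in tumor the values of LIPE lie between 0.48 and 0.69.

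The level in tumor was also set against the level in the bone of the same dog. Pearson's r between bone and tumor was 0.78 for PLIN1, 0.77 for PLIN4, 0.77 for CIDEC, 0.71 for CIDEA and 0.73 for LIPE, and rho lay between 0.39 and 0.61. None of the 5 had an adjusted p under 0.05 (0.0562 to 0.0891, exact permutation test), whereas the unadjusted p was 0.0385 for PLIN1 and 0.0405 for CIDEC (exact permutation test). Without dogs A and D, r was -0.44 for PLIN1, -0.25 for CIDEC and -0.15 for CIDEA, so these 3 relations rest on the 2 dogs with the most in bone. For LIPE r was 0.69 without the same dogs, and for PLIN4 it was 0.81 without dogs D and E, the farthest in PLIN4. Since another dog is left out there, the value is not comparable with the others, and without dog D alone r of PLIN4 was 0.57. Without dog E alone, PLIN4, CIDEC and CIDEA passed (adjusted p = 0.026, 0.0475 and 0.026, exact permutation test), and without dog B alone PLIN1 passed (adjusted p = 0.0347, exact permutation test).

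Of 34 further genes of lipid droplets and lipolysis, 15 could be paired with an identifier. The symbols come mainly from genes that the study lists as changed, so a high share of calls among the 15 is set by the pairing, and the counts say nothing about the remaining 19. In the edgeR test 8 of the 15 were called lower in tumor and 1 was called higher, where 1.79% and 1.35% of all genes tested were. The DESeq2 Wald test called 12 lower and 3 higher, where 4.46% and 2.91% of all genes were, and nothing is read from these shares. Their median log2 fold-change in edgeR was -1.69.

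Among the lipases, PNPLA2, which starts triglyceride breakdown, ranged from 3184 to 7323 normalized counts in bone and from 289 to 1869 in tumor. It changed by -2.32 ± 0.27 on the log2 scale (edgeR, FDR = 0.0032), beside -2.24 for LIPE, and a median of 24.4% was left in tumor. MGLL, which cleaves the last fatty acid, fell from 5338 ± 608 (SD) to 1905 ± 1135 normalized counts (log2 fold-change -1.69, FDR = 0.0108). LPL, which frees fatty acids from blood lipoproteins, fell by 1.91 on the log2 scale (FDR = 0.00988). PNPLA3 did not pass, at 31.5 ± 9.77 (bone) and 15.5 ± 9.35 (tumor) normalized counts (FDR = 0.186).

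ABHD5 moved the other way. It activates PNPLA2 and is held by PLIN1 on the resting droplet. Bone held between 1204 and 1874 normalized counts and tumor between 1544 and 7367, and it was higher in 7 of 7 tumors. The log2 fold-change was 1.13 ± 0.27 (edgeR, FDR = 0.0457), just within the threshold. ABHD5 was no longer called without dog A, B, C, F or G. With single dogs left out its FDR ranged from 0.0419 to 0.117 and its log2 fold-change from 0.92 to 1.28. Among these 15 genes HILPDA, which blocks PNPLA2 under low oxygen, and GK, a glycerol kinase, also had positive values, at 1.08 (FDR = 0.192) and 1.02 (FDR = 0.0578), each higher in 6 of 7 tumors.

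**Figure D5:**
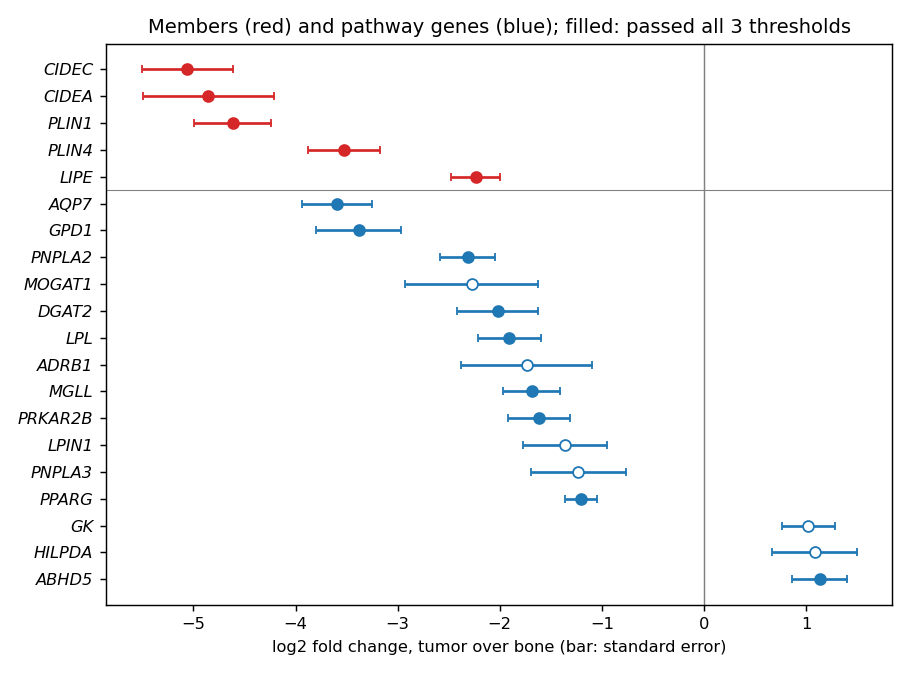
Log2 fold-change of tumor over bone with its standard error, from the edgeR test, for the 5 genes (red) and 15 pathway genes (blue). Filled points passed the thresholds on FDR, base mean and fold-change, and ABHD5 is the filled point above 0, at 1.13.

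Of the 3 genes of glycerol handling, AQP7 and GPD1 were called lower, and GK, given above, had a positive value. AQP7, which lets glycerol out of fat cells, ranged from 221 to 1016 normalized counts in bone and from 18.3 to 69.0 in tumor, without overlap (log2 fold-change -3.59, FDR = 0.00195). GPD1, which makes the glycerol backbone, fell by 3.38 on the log2 scale (FDR = 0.00351). Of the genes of triglyceride synthesis, DGAT2 was called lower (log2 fold-change -2.02, FDR = 0.0214) although it was higher in 1 of 7 tumors. MOGAT1 and LPIN1 did not pass, with log2 fold-changes of -2.28 (FDR = 0.0851) and -1.36 (FDR = 0.103).

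PRKAR2B, a regulatory subunit of the kinase that activates LIPE, fell by 1.61 on the log2 scale (FDR = 0.0176), and the beta-adrenergic receptor gene ADRB1 had -1.74 (FDR = 0.18). The level of PPARG was 1530 ± 460 (bone) and 656 ± 122 (tumor) normalized counts (log2 fold-change -1.20, FDR = 0.00419), and a median of 44.0% was left, above the 21.6% of LIPE. DGAT2 was not called without dog A, B, D or F, and PRKAR2B without dog A or F, when their highest FDRs were 0.0615 and 0.0513. In the edgeR fit with no replicate block DGAT2 was not called either (FDR = 0.094). G0S2 and PLIN2 were among the genes not analysed here.

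Of 10 adipocyte markers outside the pathway 7 could be paired. Of these, 6 (LEP, FABP4, RETN, TRARG1, PCK1 and CD36) were called lower in tumor by the edgeR test, where 1.79% of all genes were. These too could be paired mainly because the study lists them as changed, so the share is set by the pairing. Their summed level, SLC2A4 included, ranged from 10612 to 60513 normalized counts in bone and from 907 to 6034 in tumor. The fatty acid carrier FABP4 had 18299 ± 12948 and 1037 ± 1012 normalized counts (log2 fold-change -4.57, FDR = 0.0147), and the hormone leptin, LEP, 377 ± 539 and 12.8 ± 8.83 (log2 fold-change -4.09, FDR = 0.00494). The glucose transporter gene SLC2A4 did not pass in edgeR, at 318 ± 93.1 and 163 ± 138 normalized counts (FDR = 0.154), but had an FDR of 0.0214 in the DESeq2 Wald test. ADIPOQ was not analysed here. The part of the number of fat cells in the fall of the 5 genes was not tested. For skeletal muscle only ACTA1 could be paired, with a level of 0 to 657 normalized counts in bone and 384 to 6146 in tumor. It was higher in 6 of 7 tumors (log2 fold-change 2.40) and did not pass in edgeR (FDR = 0.229), but had an FDR of 0.0457 in the DESeq2 Wald test. Macrophage and endothelial markers were not analysed here. Of 6 markers of osteocytes and osteoblasts 5 could be paired, by the same route, and edgeR called 3 of them lower, SOST at -6.93, MEPE at -7.39 and BGLAP at -2.64 (log2 fold-changes). DMP1 (-3.73, FDR = 0.0516) and PHEX (-2.33, FDR = 0.0849) did not pass in edgeR, whereas both had an FDR under 0.05 in the DESeq2 Wald test (2.89e-07 and 0.00031). The median of the 5 was -3.73, and their summed level ranged from 22104 to 204214 normalized counts in bone and from 1121 to 21852 in tumor. The part of this difference between the tissues in the fall of the lipid droplet genes was not tested.

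The FABP4 share left in tumor did not follow the 5 genes in every dog. In dog F, 0.0597% of FABP4 was left, from 13968 to 8.34 normalized counts. This lay below each of the 5 genes there, from 0.772% of CIDEA and 2.36% of CIDEC over 7.84% of PLIN1 to 21.6% of LIPE. In dog C, 14.9% of FABP4 was left, beside 5.04% of PLIN1. That is within the range of the 5 genes in dog C, from 2.94% of CIDEA to 26.6% of LIPE. LEP in dog D had 0.76% left, below the 4.74% of PLIN1 and the 9.55% of LIPE in the same dog.

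The genes with the pattern most like the set were sought among 16361 genes with a base mean over 10. The measure was the mean Pearson's r with the 5 genes over the 14 libraries after the tissue mean was taken off, which leaves the differences between dogs. By this measure each of the 5 genes had a mean r between 0.73 (LIPE) and 0.90 (PLIN4) with the other 4. The 10 closest genes with a symbol were TRARG1, LOC100686507, HCAR1, KYAT1, LOC610465, GPD1, PCK1, NNAT, LEP and LOC491723, with values from 0.76 to 0.68. Another 10 genes without a symbol ranked among them. TRARG1, which helps the insulin-dependent glucose transporter to reach the cell surface, was the closest of those with a symbol and ranked 3 among all genes compared. Its level was 276 ± 372 (bone) and 4.32 ± 9.47 (tumor) normalized counts. In tumor TRARG1 was at 0 except in dogs D (25.4) and E (4.83), so its likeness among tumors rests on those dogs. HCAR1, the lactate receptor of fat cells, did not pass the test between tissues (log2 fold-change -2.29, FDR = 0.15). When the 7 bones were used alone, 3 of the 10 were again among the 10 closest genes with a symbol.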

How the data were processed

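The authors trimmed the reads (Trimmomatic 0.39 per the labels), mapped them with HISAT2 2.2.1 to CanFam3.1 and counted reads per gene with StringTie 1.3.3. The deposited values are raw counts, 1 column per library. Strand and multi-mapping settings are not given in the sources used here. The members and gene lists were chosen with earlier results of these data known.

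Genes with at least 1 count were tested with edgeR 4.0.16 (quasi-likelihood, TMM, R 4.3.3), with dog and tissue in the design and Benjamini-Hochberg adjustment over all genes (FDR). The pairing comes from the animal, which the labels give. Deviations from the tissue mean correlated at 0.0741 to 0.163 within dogs (median 0.111 over 15587 genes) and at a median of -0.0175 between dogs. Standard errors are the log2 fold-change divided by the root of F. Size factors and variance-stabilized counts are from DESeq2 1.42.0. The script was tested on simulated counts. Each tissue of a dog was 1 library, so the spread between dogs holds biological and technical variation. Symbols paired 2292 identifiers. Genes given by name are the 5 members, pathway genes that were called, PNPLA2, ABHD5, MGLL, DGAT2 and PPARG whatever their values, FABP4 and LEP, and the 10 genes with a symbol most like the members. Other genes were named with their list after their values were seen. Alternatives covered normalization, filter, pairing, test (DESeq2, limma 3.58.1), pseudocount, transformation, rank correlation and omission of each dog. RefSeq coordinates (UU_Cfam_GSD_1.0) served only to find overlapping genes, and sequences were not used here.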

Additional observations from a re-analysis of the deposited data

Results flagged for a closer look

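One value stood apart from the other 6 of its group by Dixon's criterion, out of 35 groups of 7 values examined (levels, within-dog differences and pair ratios of the 5 genes). It was the PLIN4/CIDEC count ratio in the bone of dog E, at 0.64 on the log2 scale, where the other bones lay between 1.41 and 1.90. Chance alone marks about 1 in 20 groups. Dog E had 261 PLIN4 and 167 CIDEC reads in bone, and in tumor its ratio was again the lowest of the 7.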

How the results depend on the processing

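All 5 genes stayed called under the 12 alternatives, which were DESeq2 size factors, filterByExpr, no replicate block, the DESeq2 Wald test, limma-voom and the omission of each dog. The count of members called was 5 with and without the replicate block, and their log2 fold-changes kept their sign and their side of the threshold. Over the omission of each dog, PLIN1 lay between -4.84 and -4.37, CIDEA between -5.26 and -4.50 and LIPE between -2.38 and -2.07. The number of pathway genes called lower was 6 to 8 without single dogs and 8 to 12 otherwise, 12 with the DESeq2 Wald test. With no replicate block it was again 8, with MOGAT1 in place of DGAT2. The number called higher, 1 in the test used, was 2 with filterByExpr, with no replicate block and with limma-voom, 3 with the DESeq2 Wald test, and 0 to 2 without single dogs.

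Of the 10 pair ratios, 7 changed on counts and 4 on variance-stabilized counts, where PLIN1/PLIN4 and PLIN1/LIPE passed on both scales and PLIN1/CIDEC and PLIN1/CIDEA on the latter alone. On counts the number was 0 without dog A, B, C, E, F or G and 7 without dog D. With 6 dogs the smallest p is 0.0312, so fewer than 7 pairs at that value cannot pass the adjustment. Mean changes opposite in sign to the reported ones were, with a pseudocount of 5, -0.041 for PLIN1/CIDEC, -0.16 for PLIN1/CIDEA and -0.12 for CIDEC/CIDEA. On variance-stabilized counts they were -1.02 for PLIN1/CIDEC, -1.04 for PLIN1/CIDEA, -0.14 for PLIN4/CIDEC, -0.15 for PLIN4/CIDEA and -0.016 for CIDEC/CIDEA. CIDEC/CIDEA ranged from -0.20 to 0.37 without single dogs. The changes of PLIN1/PLIN4 and of the 4 pairs with LIPE kept their sign in every alternative, but not their size. CIDEC/LIPE and CIDEA/LIPE were -2.27 and -2.15 with a pseudocount of 5, and -0.41 and -0.40 on variance-stabilized counts. Of the 25 correlations, 16 passed, and 13 to 19 without single dogs.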
